A study of Homo sapiens with 4 samples.

Results

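The SMAD, SKI, SNAI1 and ID genes described here are 10 genes of TGF-beta and BMP signalling, namely SMAD3, SMAD6, SMAD7, SKI, SKIL, TGIF1, SNAI1, ID1, ID2 and ID3. They were chosen by name, as the rows of the deposited array table that carry a single gene symbol from this list, with the brightest row standing for a gene with several. All 10 were on the array, in 14 rows, and all 10 were among the 14147 genes tested. The samples were 4 cultures of HepG2, an established human hepatocellular carcinoma line, each profiled on an Affymetrix array. In 2 cultures the cells had received anti-miR-191, an antisense inhibitor of the microRNA miR-191, and in the other 2 a negative control anti-miR (anti-miR-NC). Both groups were transfected with the lipid reagent Oligofectamine in the same medium with serum, and an untransfected culture was not analysed here. The cultures come from 2 separate experiments, called experiment 1 and experiment 2 below, each with an anti-miR-191 array and a control array. The sources used here do not give the dose, the time between transfection and harvest, or the sequence of either oligonucleotide. A single cell line was used, so the values describe HepG2 cultures and no other liver cells.

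Ligands of the TGF-beta family bind paired receptor kinases on the cell surface, and the activated receptors phosphorylate receptor-regulated SMAD proteins, which join SMAD4 and enter the nucleus. SMAD3 carries signals of TGF-beta and activin. SMAD6 and SMAD7 are inhibitory SMADs that block the receptors or compete with other SMADs, and their genes are themselves induced by the pathway. SKI, SKIL (also called SnoN) and TGIF1 are nuclear proteins that bind SMADs and repress their target genes. SNAI1 is a zinc finger repressor known for epithelial to mesenchymal transition, and ID1, ID2 and ID3 are helix-loop-helix proteins that bind basic helix-loop-helix factors and keep them off DNA. The ID genes are classical targets of BMP signalling, and many of these genes are also induced quickly by stress and growth factor signals.

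The inhibited microRNA is shown first, since it defines the comparison. RefSeq lists both mature arms of miR-191, printed 5′ to 3′ with the seed (bases 2 to 8) in capitals. The labels do not state which arm the inhibitor was directed against.
hsa-miR-191-5p (GRCh38.p14, chr3:49020672-49020694, minus strand): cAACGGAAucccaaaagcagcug
hsa-miR-191-3p (GRCh38.p14, chr3:49020631-49020652, minus strand): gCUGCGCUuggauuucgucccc
The arrays do not measure the mature microRNA, so the degree of inhibition cannot be read from these values.

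The promoters of 3 genes are shown because they let the inhibitory SMADs be compared, of which SMAD7 rose and SMAD6 did not pass the test, and because SKIL holds the full cyclic AMP response element. Each line gives the 250 bases before the RefSeq start site (GRCh38.p14), 5′ to 3′ on the gene's strand. Capitals mark matches on either strand to GTCTAGAC (the palindromic SMAD element), GTCTG (the 5-base SMAD element, read as CAGAC on the other strand), GGCGCC (a BMP-type SMAD element), TGACGTCA (the cyclic AMP response element, CRE), TGACG (the CRE core, which lies inside the full element on both strands) and TGANTCA (the AP-1 element).
SMAD7 (chr18:48950966-48951215, minus strand): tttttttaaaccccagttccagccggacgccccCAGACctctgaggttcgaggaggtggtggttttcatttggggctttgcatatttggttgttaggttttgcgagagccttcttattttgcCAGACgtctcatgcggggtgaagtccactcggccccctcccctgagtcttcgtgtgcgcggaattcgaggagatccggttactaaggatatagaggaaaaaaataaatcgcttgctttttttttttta
SMAD6 (chr15:66701986-66702235, plus strand): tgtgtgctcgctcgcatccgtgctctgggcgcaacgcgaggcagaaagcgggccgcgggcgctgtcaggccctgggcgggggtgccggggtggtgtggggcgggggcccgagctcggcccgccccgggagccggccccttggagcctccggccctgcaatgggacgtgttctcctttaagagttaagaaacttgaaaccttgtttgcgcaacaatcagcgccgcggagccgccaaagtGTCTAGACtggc
SKIL (chr3:170357465-170357714, plus strand): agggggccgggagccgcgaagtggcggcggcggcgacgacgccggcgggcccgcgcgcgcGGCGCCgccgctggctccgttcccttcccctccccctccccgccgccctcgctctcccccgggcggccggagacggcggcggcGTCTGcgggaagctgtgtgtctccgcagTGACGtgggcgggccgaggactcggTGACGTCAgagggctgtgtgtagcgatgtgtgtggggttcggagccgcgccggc
A single window at a single annotated start site was searched per gene, so an element outside it would be missed. The SMAD7 window holds CAGAC at -217 and at -128 from the start site. The SMAD6 window holds the palindrome GTCTAGAC at -12, which occurs in 0.202% of the 35116 RefSeq promoter windows of 300 bases. The SKIL window holds TGACGTCA at -54, an element found in 1.85% of all windows, and also TGACG at -79, GTCTG at -107 and GGCGCC at -190.

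Array values are given as log2 RMA intensity, a summarized probe brightness on which a step of 1 is a 2-fold difference. A change is the anti-miR-191 level minus the control level on this scale, taken within an experiment. The mean change of both experiments is given ± the SE of limma's paired fit. This SE is moderated by the spread of all genes tested, so it is not the gene's own spread between the experiments. Here, rose and fell refer to genes with an adjusted p under 0.05 in limma's paired fit, where the experiment is a blocking term. The unpaired fit has the group as its sole term. Array medians lay between 4.37 and 4.43. Hepatocyte markers were bright, with a mean level over 9 marker genes of 10.07 and 9.65 after anti-miR-191 and of 10.19 and 10.37 in controls, although FGB averaged 4.99. Of these 9 markers 0 rose and 1 fell in the paired fit (11.1%, beside 3.77% of all genes tested that fell). It was TTR (-1.04 ± 0.14, adjusted p = 0.00567 in limma's paired fit and 0.0379 in the unpaired fit). In 4 of the 9 both anti-miR-191 arrays lay below both controls, with 0 above, beside 23.8% below and 29.4% above over all genes tested. Whether this bears on the changes described below was not tested. Of 14 markers of fibroblasts, endothelium and blood cells, 13 averaged between 2.41 and 6.07, and the lysosomal gene CD68 averaged 8.57. LUM, PECAM1, KDR and PTPRC were too dim to be tested. Of the other 10 markers 0 passed in limma's paired fit (0 also at an unadjusted p under 0.05), where 13.9% of all genes tested passed. In bulk RNA, a change in the number of cells that express a gene and a change in RNA per cell cannot be told apart.

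After anti-miR-191, 6 of the 10 genes rose in the paired fit and 0 fell. These were SNAI1, SMAD7, SMAD3, TGIF1, ID2 and SKIL, with mean changes between 0.93 and 2.20. Over all genes tested, 13.9% passed in this fit, 10.1% as higher and 3.77% as lower. The 10 genes were chosen with earlier results of these data known, so these shares describe them and test nothing. SMAD6, SKI, ID1 and ID3 did not pass. In the unpaired fit 3 of the 10 passed, SMAD3, SMAD7 and SNAI1, against 3.91% of all genes tested, 3.2% as higher and 0.714% as lower. With any single array left out of the unpaired fit, a group of 1 array remains, so only changes are given in this paragraph. The calls of such fits are counted in the closing section, with their limit. The lowest and highest changes over these fits were 1.396 and 1.562 for SMAD3, 1.74 and 2.53 for SMAD7, and 1.88 and 2.53 for SNAI1. The median change of the 10 genes was 0.62 in experiment 1 and 1.44 in experiment 2, beside 0.02 and 0.01 over all genes tested. Ranked by mean change with the highest first, SNAI1 stood 30th, SMAD7 40th and SMAD3 127th of 14147 genes.

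**Figure D1:**
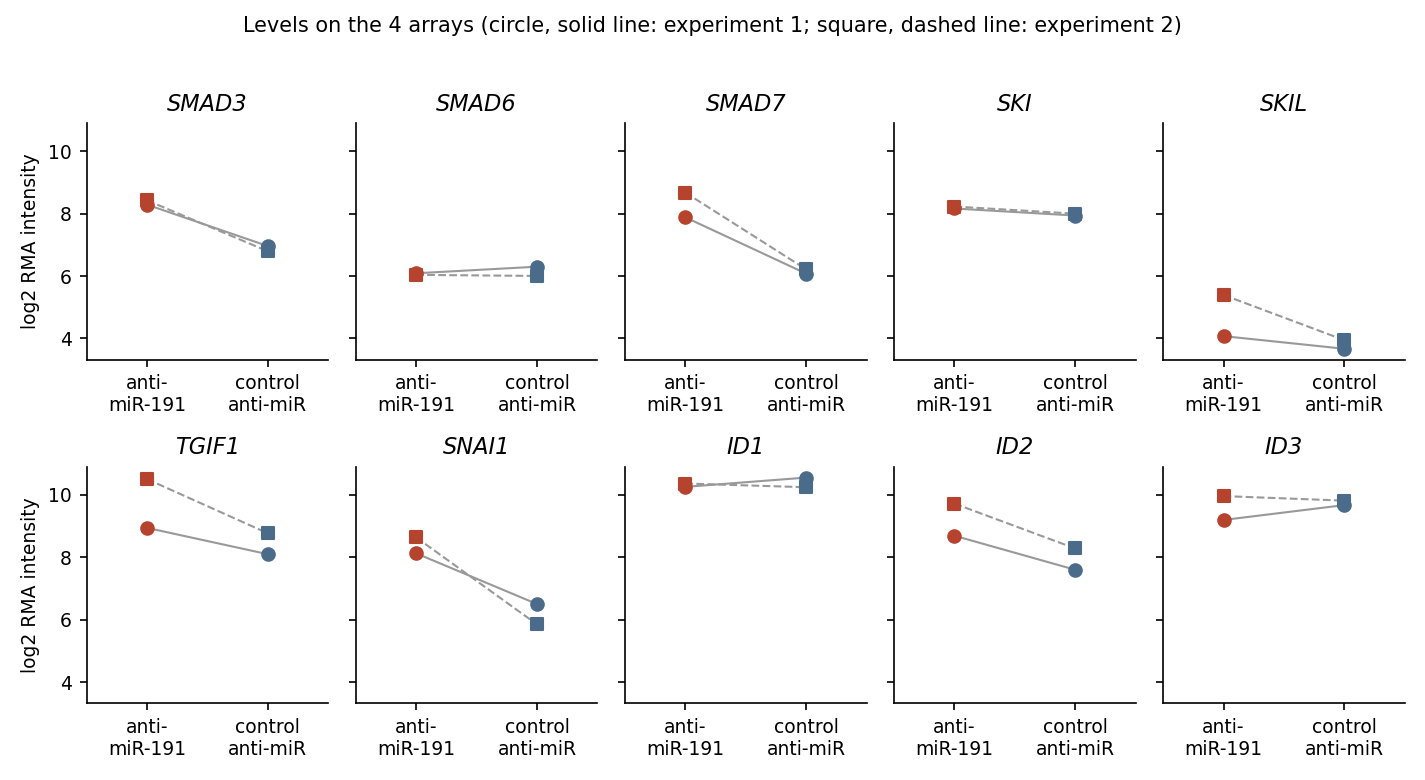
Log2 RMA intensity (vertical axis) of the 10 genes on the 4 arrays, with anti-miR-191 on the left of each panel and control anti-miR on the right. Each point is an array and each line joins the arrays of an experiment. The lines of SMAD3, SMAD7, SNAI1, TGIF1, ID2, SKIL and SKI slope the same way in both experiments. Those of SMAD6, ID1 and ID3 slope opposite ways.

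SMAD3, the receptor-regulated SMAD of the TGF-beta and activin branch (row 7984364), read 8.29 and 8.42 on the anti-miR-191 arrays of experiments 1 and 2, against 6.96 and 6.79 on the control arrays. The arrays of each group lay within 0.17 of each other, and the groups were far apart. SMAD3 rose 2.79-fold (change 1.48 ± 0.15, adjusted p = 0.00250 in limma's paired fit and 0.0207 in the unpaired fit). Its changes of 1.33 and 1.63 in experiments 1 and 2 were the closest to each other among the 3 genes that passed in both fits.

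SMAD7, an inhibitory SMAD (row 8023220), read 7.88 and 8.67 after anti-miR-191, against 6.08 and 6.22 in controls. The control arrays nearly coincided, and both anti-miR-191 arrays lay well above them. SMAD7 rose 4.38-fold (2.13 ± 0.19, adjusted p = 0.00165 in limma's paired fit and 0.0249 in the unpaired fit), by 3.49-fold in experiment 1 and 5.49-fold in experiment 2. SMAD6, the other inhibitory SMAD (row 7984353), read 6.09 and 6.04 after anti-miR-191, against 6.30 and 6.003 in controls. Its groups overlapped and its changes had opposite signs, -0.21 and 0.03 in experiments 1 and 2. The mean change of SMAD6 was -0.09 ± 0.15 with a 95% interval of -0.44 to 0.26 in limma's paired fit (adjusted p = 0.758). The difference between the changes of SMAD7 and SMAD6 was not tested.

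Among the corepressors, SKIL and TGIF1 rose and SKI did not pass. SKI, the founding member of its family (row 7897068), read 8.16 and 8.23 after anti-miR-191, against 7.94 and 7.997 in controls. The groups did not overlap, and the changes of 0.23 in experiment 1 and 0.23 in experiment 2 were nearly equal, but small. SKI did not pass (0.23 ± 0.14, 95% interval -0.11 to 0.56, adjusted p = 0.359 in limma's paired fit). SKIL, its relative (row 8083876), read 4.07 and 5.39 after anti-miR-191, against 3.67 and 3.94 in controls. The anti-miR-191 array of experiment 2 stood far above the other 3. SKIL rose 1.90-fold (0.93 ± 0.24, adjusted p = 0.0404 in limma's paired fit), with changes of 0.41 and 1.45, and did not pass in the unpaired fit (adjusted p = 0.256). Its control level of 3.81 ± 0.20 (SD, n = 2) lay close to the limit of 3.41 for dim rows, and its row ranked at percentile 48.0 of all rows by mean level. Under median centring and under quantile normalization SKIL lost its call in the paired fit (adjusted p = 0.0573 and 0.0625).

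TGIF1, a homeodomain corepressor, had 5 rows. The brightest (row 8180318) read 8.94 and 10.50 after anti-miR-191, against 8.10 and 8.77 in controls. Both anti-miR-191 arrays were above both controls, and in each group the array of experiment 2 was the higher. TGIF1 rose 2.45-fold (1.29 ± 0.22, adjusted p = 0.0103 in limma's paired fit), by 0.84 in experiment 1 and 1.74 in experiment 2. It did not pass in the unpaired fit (adjusted p = 0.206). The 4 brightest rows, which the annotation ties to different TGIF1 transcripts, gave nearly the same values, with changes between 0.79 and 0.84 in experiment 1 and between 1.60 and 1.74 in experiment 2. The dimmest row (row 8019939) read 6.09 and 6.57 after anti-miR-191, against 5.69 and 6.01 in controls, with smaller changes of 0.40 and 0.56. The rows may share probes, so they are not separate measurements. With the mean of all 5 rows in place of the brightest, the change of TGIF1 was 1.09 and the gene still passed in the paired fit.

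SNAI1 had the largest mean change of the 10 genes. Its row (8063382) read 8.13 and 8.64 after anti-miR-191, against 6.50 and 5.85 in controls. The groups were apart by more than 1 on the log2 scale, and the control of experiment 2 was the lowest of the 4 arrays. SNAI1 rose 4.61-fold (2.20 ± 0.25, adjusted p = 0.00346 in limma's paired fit and 0.0243 in the unpaired fit), by 3.08-fold in experiment 1 and 6.89-fold in experiment 2.

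Of the 3 ID genes, ID2 rose and the others did not pass. ID2 (row 8040103) read 8.69 and 9.72 after anti-miR-191, against 7.60 and 8.28 in controls. The arrays of experiment 2 were the higher in both groups, so the spread within a group was wide while the changes of 1.09 and 1.44 were close. ID2 rose 2.40-fold (1.26 ± 0.16, adjusted p = 0.00429 in limma's paired fit) and did not pass in the unpaired fit (adjusted p = 0.123). ID1 (row 8061564) read 10.26 and 10.36 after anti-miR-191, against 10.55 and 10.24 in controls. Its groups overlapped, its changes of -0.30 and 0.12 had opposite signs, and its mean change was -0.09 ± 0.16 with a 95% interval of -0.47 to 0.29 (adjusted p = 0.775 in limma's paired fit). ID3 (row 7913655) read 9.196 and 9.96 after anti-miR-191, against 9.67 and 9.81 in controls. Its groups overlapped as well, with changes of -0.48 and 0.15 and a mean of -0.17 ± 0.18 (95% interval -0.59 to 0.26, adjusted p = 0.620 in limma's paired fit). For SMAD6, SKI, ID1 and ID3 these intervals leave out a 1.5-fold rise, and only that of ID3 reaches a 1.5-fold fall. The differences between the ID genes' changes were not tested.

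In 7 of the 10 genes, the 6 that rose and SKI, both anti-miR-191 arrays lay above both control arrays, as they did in 29.4% of all genes tested. In SMAD6, ID1 and ID3 the groups overlapped, and in 0 of the 10 both anti-miR-191 arrays lay below both controls (23.8% of all genes tested). All 10 changes were higher in experiment 2 than in experiment 1, that of SKI by less than 0.01. The same order was seen in 51.3% of all genes tested and in 68.4% of the genes that rose in the paired fit. Over the 9 hepatocyte markers the median change was 0.01 for experiment 1 and -0.88 for experiment 2. ALB, AFP, APOB, FGB and TF had changes of 0.01 to 0.48 in experiment 1 and of -1.24 to -0.35 in experiment 2. The other markers had negative changes in both experiments. TTR changed by -1.01 and -1.07, APOA1 by -0.40 and -0.56, APOA2 by -0.28 and -0.26, and SERPINA1 by -0.03 and -0.09. The part of these markers in the larger changes of experiment 2 was not tested.

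**Figure D2:**
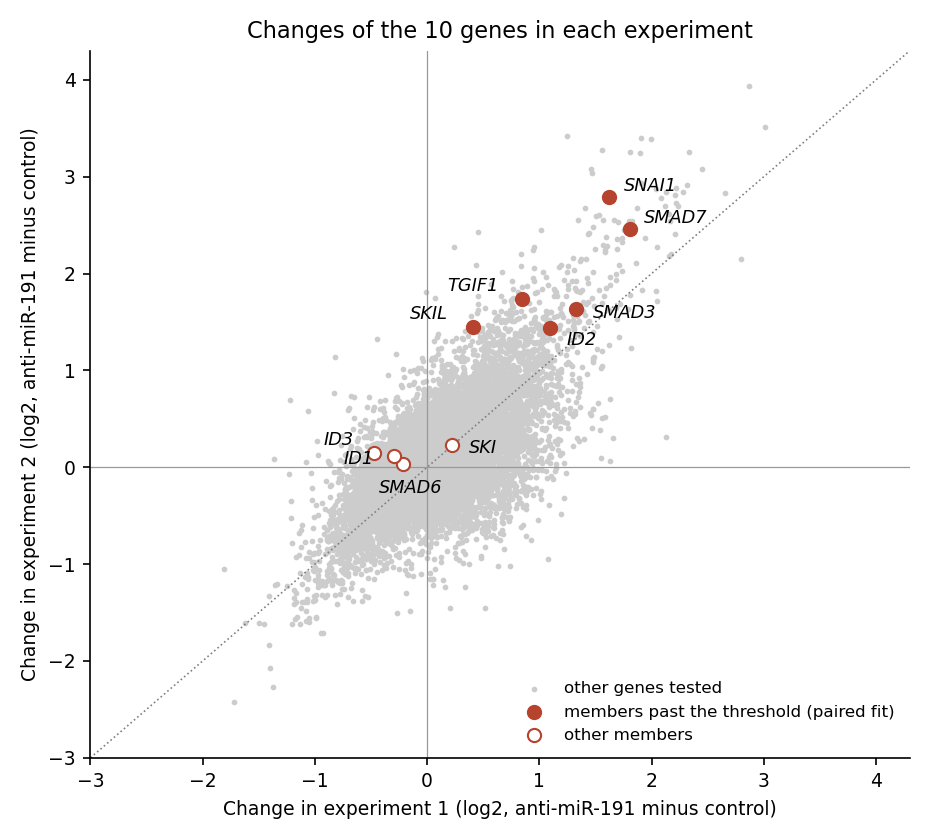
Change in experiment 1 (horizontal axis) against change in experiment 2 (vertical axis), both in log2 units as anti-miR-191 minus control, for the 14147 genes tested (grey) and the 10 genes (red; filled where the paired fit passed). The dotted line marks equal changes; SNAI1 lies at 1.62 and 2.79 and SMAD7 at 1.80 and 2.46, and all 10 genes lie on or above the line.

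For each gene that rose, the 3 other genes whose 4 levels, after subtraction of the gene's own mean, lay nearest by Euclidean distance were listed over the 4 arrays. With 4 arrays this is a description of likeness and no more. SNAI1 lay nearest to EGR1, NFKBIA and IER2, at distances of 0.16, 0.17 and 0.18 on the log2 scale. The first and the last of these are immediate early genes and NFKBIA encodes an inhibitor of NF-kB. SMAD7 lay nearest to AMOTL2, TNFRSF10D and CLK1, and SMAD3 to IRS1, IRAK2 and IL4R, with distances between 0.04 and 0.12. ID2 lay nearest to SMCHD1, DCUN1D3 and the vault RNA VTRNA1-3. SKIL lay nearest to YEATS4, TLE4 and TRIAP1. TGIF1 lay nearest to RPL22L1, VTRNA1-3 and FBXW7, at distances of 0.25 to 0.31, the widest of the 6 genes.

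The other genes of the pathway were counted in 9 lists by role, 101 genes in all, of which 89 were tested. In the paired fit 19 of the 89 rose and 1 fell (21.3% and 1.12%, beside 10.1% and 3.77% of all genes tested), and in the unpaired fit 9 were higher and 1 was lower. Their median change was 0.09, beside 0.01 over all genes tested. The lists too were chosen with earlier results of these data known, so these shares are a description and no test. The genes named from each list, apart from CDH1, are those past the threshold with the largest changes, at most 5.

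Genes that act on SMADs and receptors after their activation rose in part. Of 9 tested genes of SMAD turnover 3 rose (33.3%, beside 10.1% of all genes tested) and 0 fell. Their median change was 0.39. SMURF2, a ubiquitin ligase that binds SMAD7 and directs receptors to degradation, read 7.40 and 7.79 after anti-miR-191, against 5.59 and 6.02 in controls. It rose 3.46-fold (1.79 ± 0.14, adjusted p = 0.00135 in limma's paired fit and 0.0230 in the unpaired fit), with changes of 1.81 and 1.77 that almost coincided. SMURF1, the related ligase, read 7.35 and 7.51 after anti-miR-191, against 6.05 and 6.05 in controls, and rose 2.60-fold. NEDD4L, a ligase of the same family, read 7.57 and 7.86 after anti-miR-191, against 6.52 and 6.67 in controls, and rose 2.17-fold. All 3 passed in both fits.

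Extracellular and membrane inhibitors also rose in part, 3 of 7 tested (42.9%, beside 10.1% of all genes tested). Of them 0 fell, and the median change was 0.21. FSTL3, which binds activins outside the cell, read 7.90 and 8.19 after anti-miR-191, against 6.90 and 6.90 in controls (2.21-fold, adjusted p = 0.00496 in limma's paired fit). FST, or follistatin, another activin-binding protein, read 6.72 and 7.13 after anti-miR-191, against 6.06 and 5.61 in controls (2.12-fold). BAMBI, a receptor-like protein without a kinase domain, read 8.98 and 9.97 after anti-miR-191, against 8.47 and 8.65 in controls (1.89-fold). FST and BAMBI did not pass in the unpaired fit (adjusted p = 0.0544 and 0.167), and BAMBI lost its call in the paired fit under quantile normalization (adjusted p = 0.0517).

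Of 15 ligand genes 1 rose and 0 fell (6.67%, beside 10.1% of all genes tested that rose), with a median change of -0.05. It was INHBE, an inhibin beta subunit made mainly in liver, which read 8.83 and 9.31 after anti-miR-191, against 7.77 and 7.74 in controls (2.48-fold, adjusted p = 0.00490 in limma's paired fit and 0.0298 in the unpaired fit). Of 12 receptors and co-receptors 1 rose and 0 fell (8.33%, also near the share of all genes), with a median change of 0.06. TGFBR2, the type II receptor for TGF-beta, read 8.10 and 8.29 after anti-miR-191, against 7.13 and 7.48 in controls (1.85-fold, adjusted p = 0.00987 in limma's paired fit and 0.0534 in the unpaired fit).

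Of 12 other SMADs and nuclear partners 2 rose (16.7%, beside 10.1% of all genes tested) and 0 fell. Their median change was 0.32. SMAD5, a receptor-regulated SMAD of the BMP branch, read 5.40 and 6.15 after anti-miR-191, against 4.58 and 5.47 in controls, so that its groups overlapped although it rose 1.68-fold within the experiments. EP300, an acetyltransferase that acts as a SMAD coactivator, read 6.59 and 6.85 after anti-miR-191, against 5.42 and 6.35 in controls (1.78-fold). Neither passed in the unpaired fit (adjusted p = 0.293 and 0.188), and EP300 lost its call in the paired fit under quantile normalization (adjusted p = 0.0706).

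Genes described as SMAD targets moved in both directions. Of 14 tested 6 rose and 1 fell (42.9% and 7.14%, beside 10.1% and 3.77% of all genes tested). Their median change was 0.35. JUNB, an AP-1 factor, read 10.02 and 10.89 after anti-miR-191, against 8.12 and 7.64 in controls. KLF10, a zinc finger factor also known as a TGF-beta inducible early gene, read 7.96 and 8.99 after anti-miR-191, against 6.27 and 6.73 in controls. These were the widest gaps of the list, 5.96-fold and 3.93-fold. BHLHE40, a helix-loop-helix repressor, rose 2.07-fold, and CCN2, a matrix protein gene, rose 1.70-fold. Neither of these passed in the unpaired fit (adjusted p = 0.120 and 0.161). HAMP, the hepcidin gene and a BMP target in hepatocytes, read 6.22 and 6.55 after anti-miR-191, against 7.575 and 7.77 in controls, and fell by 1.29 ± 0.15 (adjusted p = 0.00344 in limma's paired fit). ID1 and ID3, which are BMP targets too, had mean changes of -0.09 and -0.17 and did not pass, and their difference from HAMP was not tested.

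**Figure D3:**
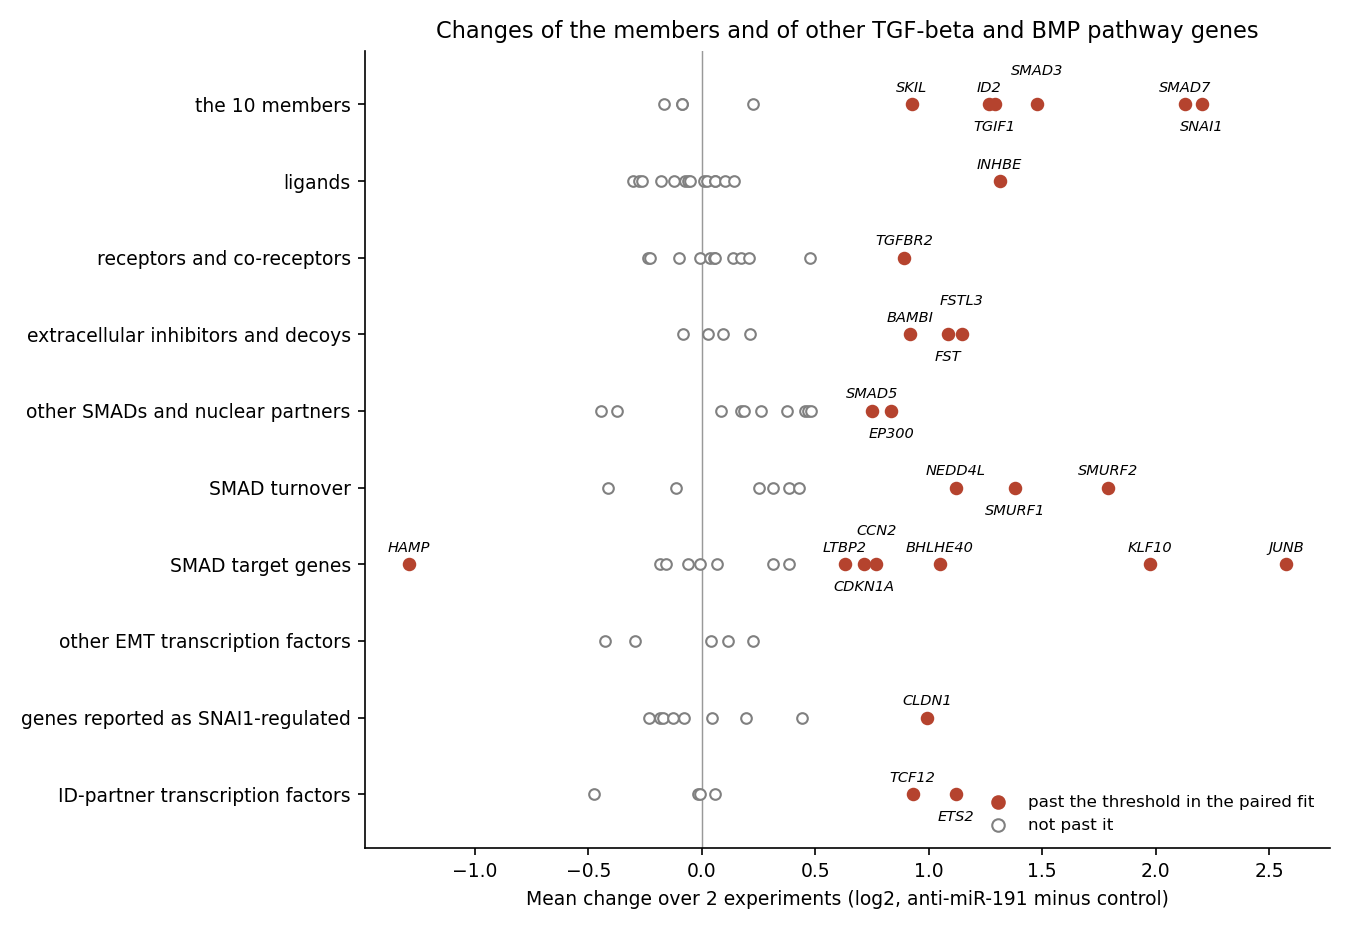
Mean change over both experiments (log2, anti-miR-191 minus control, horizontal axis) of the 10 genes and of the tested genes of each pathway list (rows). Filled points passed the paired fit and are named, open points did not; HAMP at -1.29 is the sole filled point below 0.

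The remaining lists held the counterparts of SNAI1 and of the ID proteins. Of 5 other transcription factors of epithelial to mesenchymal transition that were tested 0 passed in limma's paired fit (1 at an unadjusted p under 0.05) and 0 in the unpaired fit, with a median change of 0.04. Of 9 genes reported as regulated by SNAI1, with a median change of -0.08, 1 rose (11.1%, near 10.1% of all genes) and 0 fell. It was CLDN1, a tight junction gene described elsewhere as repressed by SNAI1, which read 8.37 and 8.18 after anti-miR-191, against 7.22 and 7.34 in controls (1.99-fold, adjusted p = 0.00791 in limma's paired fit and 0.0325 in the unpaired fit). CDH1, the E-cadherin gene and the best known gene repressed by SNAI1, was named after its values were seen. It read 7.16 and 6.79 after anti-miR-191, against 6.88 and 7.22 in controls, with overlapping groups and an adjusted p of 0.840 in limma's paired fit. Of 6 reported partners of ID proteins 2 rose (33.3%, beside 10.1% of all genes tested) and 0 fell. Their median change was 0.02. ETS2, an ETS-family factor, read 8.29 and 8.47 after anti-miR-191, against 7.16 and 7.36 in controls (2.17-fold, adjusted p = 0.00475 in limma's paired fit and 0.0279 in the unpaired fit). TCF12, an E protein, read 6.02 and 6.79 after anti-miR-191, against 5.51 and 5.44 in controls (1.90-fold, adjusted p = 0.0263 in limma's paired fit and 0.108 in the unpaired fit), and lost its call in the paired fit under quantile normalization (adjusted p = 0.0679).

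RefSeq promoter windows of 250 bases before and 50 after the start site were matched for 8 of the 10 genes, which did not include SKI and SNAI1. The 5-base SMAD element GTCTG was found, on either strand, in the windows of 4 of the 5 matched genes that rose (SMAD3, SMAD7, SKIL and TGIF1) and of 1 of the 3 that did not pass (ID3), and in 45.3% of all windows. The BMP-type element GGCGCC was found in SMAD3 and SKIL and in 19.2% of all windows. The CRE core TGACG was found in SKIL and ID3 and in 24.6% of all windows. The aryl hydrocarbon receptor core GCGTG was found in SMAD3, ID1, ID2 and ID3 and in 36.5% of all windows. ID1 alone of the 8 held the TATA box TATAAA (11.5% of all windows), and 0 of the 8 held TGANTCA (7.71%) or the SNAI-type E-box CACCTG (20.6%). These are matches of letters in a window around the annotated start and show neither binding nor use.

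**Figure D4:**
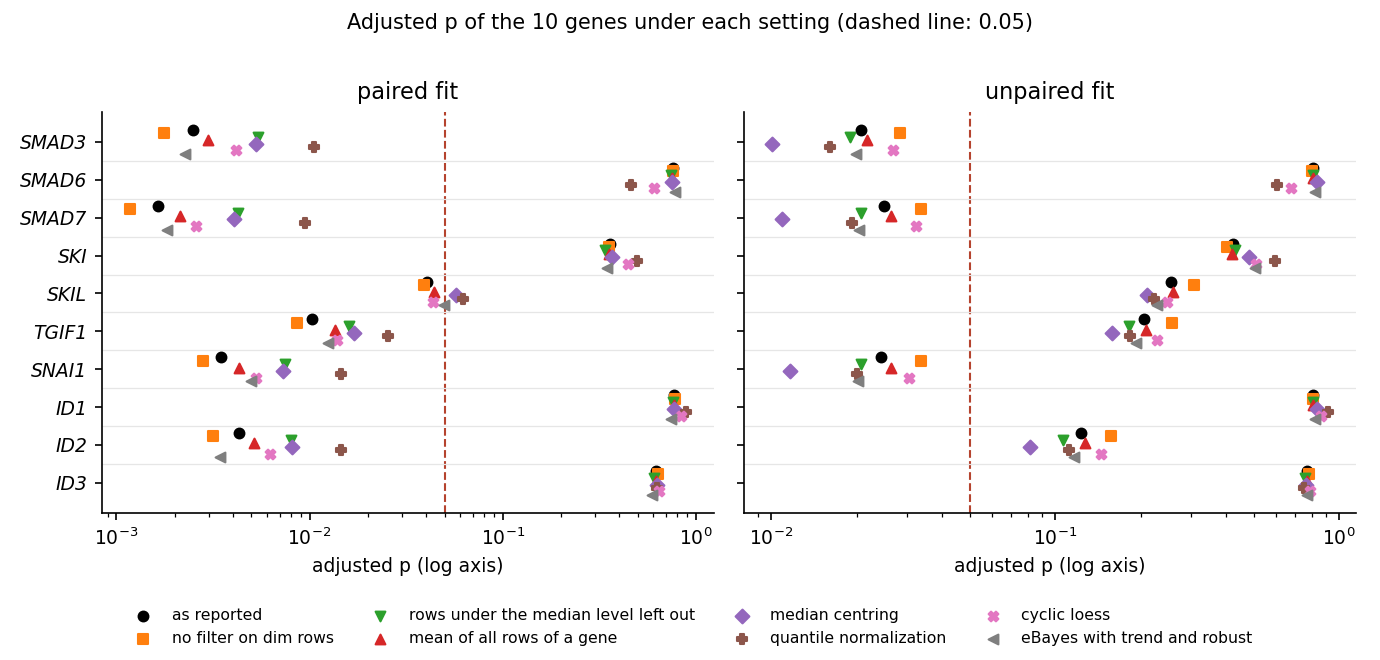
Adjusted p (horizontal log axis) of the 10 genes (rows) in the paired fit on the left and the unpaired fit on the right, under the reported setting (black) and 7 alternatives (colours and shapes). The dashed line is the threshold of 0.05; SMAD3, SMAD7 and SNAI1 lie left of it in both panels under every setting drawn, and SKIL lies on both sides of it in the paired fit.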

How the data were processed

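RNA from the 4 cultures was hybridised to 1-colour Affymetrix arrays. The authors deposited log2 intensity values per transcript cluster, and the submitters' processing notes name RMA and Affymetrix Expression Console. RMA adjusts background, normalizes arrays and summarizes probes. That the logarithm has base 2 was inferred from the range of the values and from what RMA normally writes. GEO's platform annotation gave a single symbol for 19460 of 33297 rows, several for 1754 and none for 12083, and only rows of the first kind were used by name. Rows in the lowest 33.3% by mean level (below 3.41) were dropped, and each gene was represented by its brightest row, which left 14147 genes. The 10 genes described all passed this limit, also by their control arrays alone.

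Fits used limma 3.58.1 in R 4.3.3 (lmFit and eBayes, two-sided), with Benjamini-Hochberg adjustment over the genes tested and a threshold of 0.05. The paired fit had the experiment as a block and 1 residual degree of freedom, to which moderation added 6.60. The unpaired fit had 2, to which it added 4.32. Arrays were paired because the series text calls the duplicates independent studies and the titles number them. Across genes, same-numbered arrays deviated from their group means together (r = 0.335). Array values have no counting depth, so the number of arrays limits the precision. The p-values rest only on the spread between these arrays, which the moderation pools in large part over all genes tested. The fits were tested on simulated data. The genes, lists and rules for named genes were chosen with earlier results of these data known. The rule for named genes took all 10 genes, up to 5 called genes of each pathway list with the largest mean change, and the 3 genes nearest in pattern to each gene that rose. CDH1 was named outside this rule, after its values were seen. Alternatives changed the block, the limit on dim rows, the scaling, the moderation, the row that stood for a gene, the fold threshold or the arrays used. Promoter and microRNA sequences are RefSeq's (GRCh38.p14). Figures were drawn with matplotlib 3.10.9.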

Additional observations from a re-analysis of the deposited data

How the results depend on the processing

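The 6 calls among the 10 genes in the paired fit became 5 under median centring and quantile normalization, which ended that of SKIL, and 5 of 9 where rows under the median level were left out, so that SKIL was not tested. Without the replicate block 3 of the 10 genes passed and 10 of the 89 pathway genes, against 6 and 20 with it. SKIL, TGIF1 and ID2 were the genes that lost their call there. The other 4 of the 7 alternatives and a 1.5-fold threshold left the count of 6 as it was, and quantile normalization lowered the pathway count to 15.

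Leaving out single arrays moved the unpaired count of the 10 genes between 0 and 6. With the first anti-miR-191 array left out it was 6. With the second anti-miR-191 array, the first control or the second control left out it was 0 in limma's fit (4, 3 and 5 at an unadjusted p under 0.05). In those last 3 settings 0 of all 14147 genes passed as well (1663, 2432 and 3178 at an unadjusted p under 0.05). With a group of 1 array, that array is assumed to vary like the other group. The paired fit has no residual degree of freedom with an array left out, so no such test was made. Within either experiment alone the changes of SNAI1, SMAD7, SMAD3, TGIF1, ID2 and SKIL were positive. Over all genes, quantile normalization gave 896 higher and 523 lower in the paired fit, against 1428 and 533 as reported, and 385 and 163 in the unpaired fit, against 452 and 101. No call reversed its direction under the alternatives run.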
